A study of Mus musculus with 2 samples.

Results

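In hindbrain of newborn mice, 277 of 9940 annotated processed pseudogenes (2.79%, exact 95% interval 2.47 to 3.13%) had a DNase-seq peak of each replicate within 500 bp of the 5' end, and are called open-start pseudogenes here. They were chosen by that rule from the GENCODE M21 annotation of mm10 and by the peaks of both libraries. Of the 277, 249 had no start of another gene's transcript within 1000 bp of the 5' end and are called isolated; the other 28 lay near another gene's start. The study measured open chromatin by DNase-seq, which reads where the nuclease DNase I cuts accessible DNA, in B6NCrl mouse hindbrain taken on day 0 after birth, both sexes being pooled. It has 2 replicates that form 1 group, with no second condition, so no value below compares treatments. The labels give both replicates the same donor entry, so their agreement is not known to hold across separate sets of animals. How many animals each library held was not stated in what was read here. No test was possible over samples, so shares are given with exact binomial intervals that cover counting error only.

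A processed pseudogene is a retrocopy: a cell's mRNA was reverse transcribed and inserted elsewhere in the genome, so the copy lacks introns and usually lacks the promoter of its parent gene. Abundant mRNAs of the germ line, such as those of ribosomal proteins, left the most copies. A CpG-rich stretch that the mRNA itself carries, often near its beginning, travels with the copy, and in mouse promoters at large such stretches are often accessible. The annotated models of many pseudogenes begin at the copied coding start, so the copied sequence may extend upstream of the annotated 5' end.

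The tissue label was checked on 11 genes. The starts of 7 of 7 neuronal and hindbrain genes (Tubb3, Map2, Snap25, Zic1, Cbln1, Hoxa4 and Hoxb5) were open in both replicates, and those of 0 of 4 liver and muscle genes (Alb, Apoa1, Ckm and Myh6) were. The label of the members was checked on their structure: 92.1% of the open-start pseudogenes had 1 annotated exon, against 90.4% of all processed pseudogenes, and a parent transcript could be aligned to 90.3%, against 92.7%. A run of at least 8 A within 100 bp after the 3' end was rare, in 8.66% of them, against 11.6% of all processed pseudogenes. RefSeq held 177 of the 277 symbols, 166 of them as pseudogenes, 7 as transcribed pseudogenes and 4 as protein-coding genes.

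The open sequence of 6 of the isolated members with the highest scores is shown because these pseudogenes have no other annotated start within 1000 bp. Each line gives the mm10 bases covered by the best peak of both replicates, read 5′ to 3′ on the strand of the pseudogene, with every CG dinucleotide in capitals. The intervals are chr2:122467776-122467905 (minus strand) for Bambi-ps1, chr17:3314296-3314445 (minus strand) for Gm6475, chr7:30431956-30432085 (plus strand) for Gm30646, chr7:101061536-101061665 (minus strand) for Gm5735, chr11:82971076-82971205 (plus strand) for Gm11424 and chr14:57362856-57363005 (plus strand) for Gm8971.
Bambi-ps1: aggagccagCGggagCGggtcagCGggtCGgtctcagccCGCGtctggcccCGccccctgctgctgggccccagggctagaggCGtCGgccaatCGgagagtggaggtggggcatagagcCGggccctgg
Gm6475: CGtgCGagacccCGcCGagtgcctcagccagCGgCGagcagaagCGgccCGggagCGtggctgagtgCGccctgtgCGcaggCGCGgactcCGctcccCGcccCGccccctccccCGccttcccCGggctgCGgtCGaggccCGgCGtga
Gm30646: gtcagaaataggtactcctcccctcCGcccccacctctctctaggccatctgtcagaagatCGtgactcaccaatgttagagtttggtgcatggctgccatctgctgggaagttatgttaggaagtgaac
Gm5735: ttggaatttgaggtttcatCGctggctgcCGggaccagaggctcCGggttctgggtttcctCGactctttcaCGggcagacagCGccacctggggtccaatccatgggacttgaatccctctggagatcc
Gm11424: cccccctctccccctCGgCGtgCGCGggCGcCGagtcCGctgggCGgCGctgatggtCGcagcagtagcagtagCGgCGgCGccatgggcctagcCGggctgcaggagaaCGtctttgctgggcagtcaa
Gm8971: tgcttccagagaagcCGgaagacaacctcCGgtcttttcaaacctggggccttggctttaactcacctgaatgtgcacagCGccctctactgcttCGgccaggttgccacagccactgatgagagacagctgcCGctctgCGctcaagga
The Gm6475 stretch held 22 CG in 150 bases at 79.3% GC, the Gm11424 stretch 15 in 130 bases at 72.3% and the Bambi-ps1 stretch 11 in 130 bases at 74.6%. The Gm30646 stretch held 2 CG in 130 bases at 51.5% GC, so the highest scores did not all lie on CpG-rich sequence.

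Open starts were rare at processed pseudogenes compared with other gene classes. Beside the 2.79% of processed pseudogenes stood 60.7% of protein-coding genes, 23.1% of lincRNA genes and 32.4% of all annotated genes. Unprocessed pseudogenes, which arise by gene duplication, had 1.21%. The annotation's separate class of transcribed processed pseudogenes, which are no members, had 17.6% (52 of 296). Among processed pseudogenes the share was 2.66% of the 9377 isolated ones (2.34 to 3%) and 4.97% of the 563 near another start (3.33 to 7.11%). Since peaks near the 5' end are the rule itself, these shares are the background of the counts below and not a finding.

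The share of isolated pseudogenes with an open start lay below that of the whole genome away from annotated starts. It was 2.66%, whereas 4.31% of all sequenced bases over 1000 bp from every annotated start lay within 500 bp of a peak of each replicate. By location, 2.5% of the isolated intergenic pseudogenes were open (185 of 7387), against 3.58% of such intergenic bases. Of those in introns of protein-coding genes 3.23% were open (62 of 1920), against 5.51% of such bases inside protein-coding genes. Isolated open-start pseudogenes lay a median of 22585 bp from the nearest protein-coding start, and all isolated pseudogenes a median of 39373 bp. By chromosome the open share ran between 1.1% on Y (1 of 91) and 1.19% on X (11 of 925) at the low end and 4.67% on 17 (19 of 407) at the high end.

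Peak coverage along the DNA around all 9377 isolated 5' ends, open or not, was low close to the pseudogene. Peaks of both replicates covered 0.369% of the bases in the 500 bp before the 5' end and 0.319% in the 500 bp after it. Farther out they covered 0.528% of the bases between 5000 and 2000 bp before the 5' end and 0.556% between 2000 and 5000 bp after it. Within the low stretch a narrow rise stood just after the 5' end. In the bin of 100 to 200 bp after it, peaks covered 1.14% of bases in replicate 1, 0.705% in replicate 2 and 0.455% in both. In the bin of 400 to 500 bp after it the values were 0.536%, 0.37% and 0.22%. For both replicates the rise was hardly above some bins upstream, with 0.448% at 900 to 800 bp and 0.41% at 500 to 400 bp before the 5' end. Replicate 1 alone had 0.882% and 0.831% in those 2 bins. The authors called the peaks from filtered alignments, and the part of that filter in the low coverage over copied sequence was not tested.

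**Figure D1:**
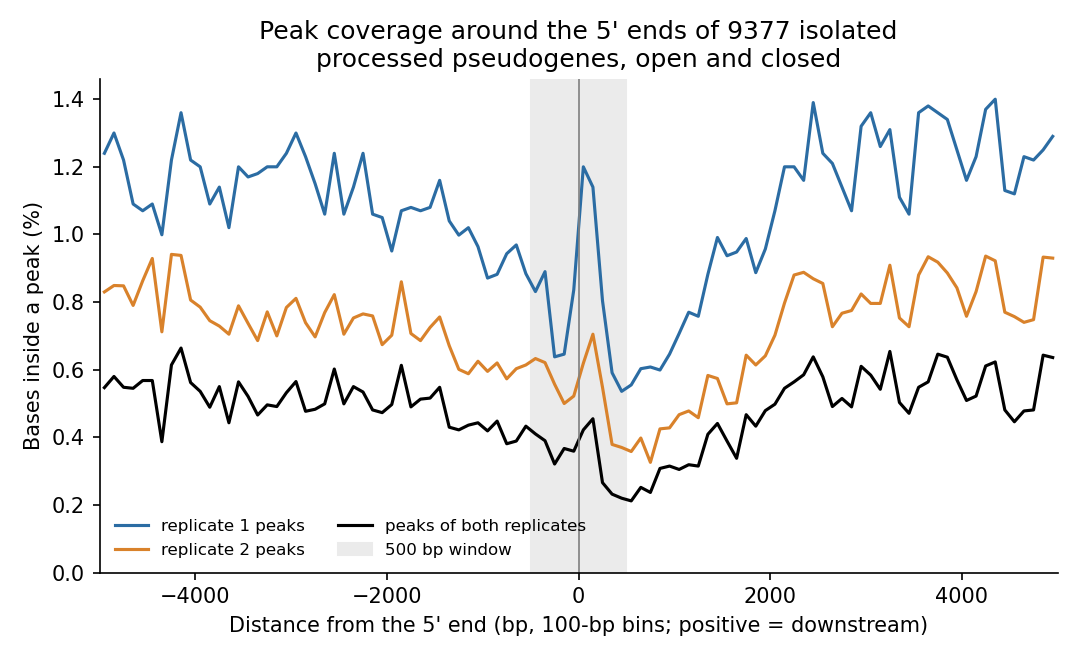
Share of bases inside a peak (vertical axis, percent) by distance from the 5' end (horizontal axis, bp, bins of 100 bp) over all 9377 isolated processed pseudogenes; the lines are the peaks of replicate 1, of replicate 2 and of both, and the grey band marks the 500 bp window of the rule. The line for both replicates dips around the pseudogenes, with a narrow rise that reaches 0.455% at 100 to 200 bp after the 5' end. That is close to the 0.448% at 900 to 800 bp before it.

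No gap in the distances marked the 500 bp limit. Taking the larger of the distances to the nearest peak of each replicate, 37 isolated pseudogenes were at 0 bp, 60 at 1 to 100 bp, between 33 and 42 in each 100 bp between 101 and 500 bp, and between 41 and 45 in each 100 bp between 501 and 1000 bp. Just inside the limit were Gm18092, a copy of Rpl5, with peaks 496 and 436 bp away in replicates 1 and 2, Gm5819, a copy of Unkl, at 494 and 434 bp, and Rpl21-ps11, at 494 bp in both. Just outside were Gm14053, another copy of Rpl21, at 501 bp in both, Gm44100, a copy of the ferritin heavy chain gene Fth1, at 503 and 463 bp, and Gm12982, a copy of Rps21, at 265 and 505 bp.

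The best peaks at open-start pseudogenes had a median score above that of all peaks in replicate 1 and equal to it in replicate 2. They were far weaker than those at protein-coding starts. A member's peak was the best in a window that had to hold a peak of each replicate, whereas all peaks of a list were not chosen so. The score is the authors' whole number per peak, whose scaling is not stated, and values are compared only within a list. The best peak at isolated members had a median score of 57 in replicate 1 and 37 in replicate 2, against 45 and 38 over all peaks of each list and 129 and 109 at open protein-coding starts. At members near another start the medians were 69.5 and 49.5. The order of the members was similar in both replicates across members (Spearman's rho 0.907 over 277, a description, since the libraries share the sites). The best peaks of both replicates overlapped in 258 of 277 members.

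**Figure D2:**
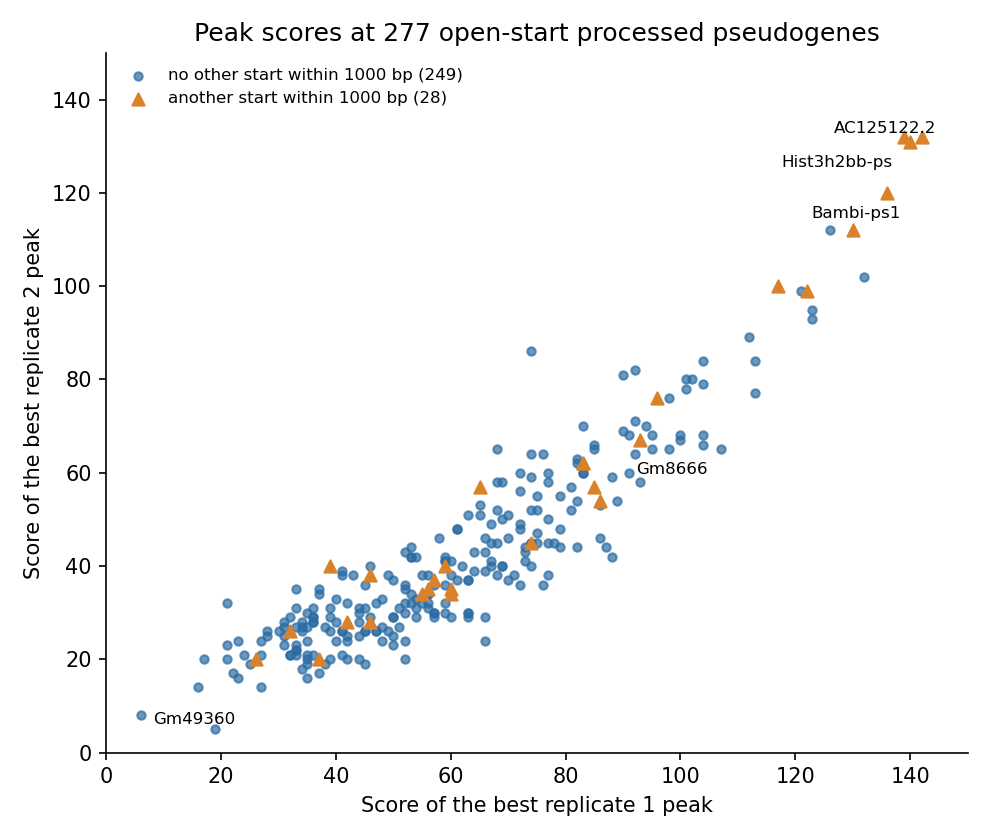
Score of the best replicate 1 peak (horizontal axis) and of the best replicate 2 peak (vertical axis) at each of the 277 open-start processed pseudogenes; circles are the 249 isolated ones, and triangles the 28 near another start. Members high in one list are high in the other, and the triangles at the upper right, AC125122.2 and Hist3h2bb-ps among them, are members beside protein-coding starts.

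The isolated member with the highest mean percentile of score was Bambi-ps1, a copy of Bambi, which encodes a decoy receptor that restrains TGF-beta signalling. Its peak scored 126 in replicate 1 and 112 in replicate 2, with the centre at -305 bp and -325 bp (negative positions are upstream of the 5' end). No base of either peak aligned to a Bambi transcript, and RefSeq lists this pseudogene as transcribed. The aligned copy of Bambi reached 229 bp before the 5' end, and the near edges of the peaks lay at 230 and 250 bp. The replicate 1 peak thus directly adjoined the copy. Gm6475, a copy of Cd2ap, which encodes an adaptor between membrane proteins and actin, scored 121 and 99 with both centres at -186 bp, again with no base in copied sequence. Its aligned copy reached 73 bp before the 5' end, and the near edge of both peaks lay at 111 bp. The 2 parents' own starts scored 144 and 129 (Bambi) and 140 and 131 (Cd2ap), so the copies were lower in both libraries.

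Gm30646, a copy of the spliceosomal Sm protein gene Snrpf, scored 123 and 95 with centres at -514 and -534 bp. Gm5735, a copy of the ribosomal protein gene Rps29, scored 112 and 89, with centres at -136 and -116 bp. Gm11424, a copy of the histone methyltransferase gene Kmt5a, scored 113 and 84 across its 5' end, and 30.7% of the replicate 1 peak aligned to the parent transcript. Gm11424 was 1 of 2 among these 12 members whose peak crossed the annotated start. Gm8971, a copy of the elongin B gene Elob inside an intron of Cryl1, scored 104 and 84 with both centres at -455 bp. Anp32b-ps1, a copy of the nuclear phosphoprotein gene Anp32b, scored 113 and 77, and 92.7% of the replicate 1 peak and 79.3% of the replicate 2 peak lay in copied sequence. That sequence has 1 further near-identical match in the genome.

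The remaining 5 of the 12 highest were AC130218.1 (132 and 102, a copy of Rsbn1l), AC132100.3 (123 and 93, a copy of the galectin gene Lgals1), AC137585.2 (104 and 79) and Gm13385 (101 and 80), both copies of the ribosomal protein gene Rps6, and Gm49704 (102 and 80, a copy of Rpl7a). Of these, AC130218.1 had its peak upstream, with centres at -365 and -345 bp, and AC137585.2 had its peak across the 5' end. In each of these 2 members 100% of the peak lay in copied sequence in both replicates. Gm13385 had its peak beyond its 3' end, at 438 bp, so an open 5' window does not always mean an open 5' end.

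Most peaks of isolated members lay outside the annotated start itself. In replicate 1 the best peak lay upstream in 126 of 249 (50.6%), across the 5' end in 37 (14.9%), inside the pseudogene in 68 (27.3%), across its 3' end in 10 and beyond it in 8. In replicate 2 the counts were 120, 42, 68, 12 and 7. To see whether the accessible bases came from the parent's mRNA, each locus with 1000 bp on either side was aligned to the parent's transcripts, a step chosen after the scores were seen. Of the 222 isolated members that gave such an alignment, 110 (49.5%, 42.8 to 56.3%) had at least 50% of the replicate 1 peak in copied sequence, and 112 had at least 50% of the replicate 2 peak there. In 87 no base of either replicate's best peak was copied.

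Copied and uncopied sites followed the position of the peak. Of the aligned members, 58 of 58 with the peak inside and 25 of 33 with it across the 5' end had it in copied sequence, which their position largely implies. Of 117 with the peak upstream, 21 had it in copied sequence that extends beyond the annotated model, and 87 had none; for 86 members whose peak lay beyond the copy, the median distance between the end of the copy and the peak was 238 bp. Members with at least 50% of the replicate 1 peak copied had a median percentile of score of 52.4, over all positions. Aligned members with less or none of it copied had 52.9. In the same order, the medians were 64.3 and 54.8 for peaks upstream, and 61.8 and 51.3 for peaks across the 5' end. Across the 5' end the class under 50% held 6 partly copied peaks and 2 with no copied base. Peaks inside, all copied, had 47.7.

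**Figure D3:**
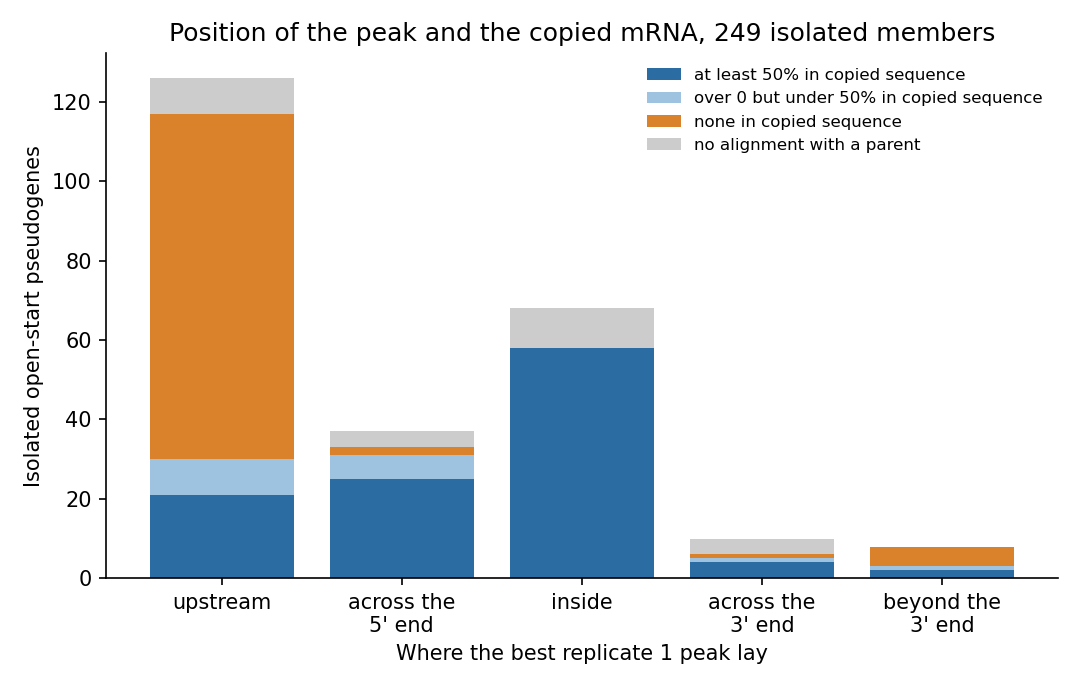
Number of isolated open-start processed pseudogenes (vertical axis) by where the best replicate 1 peak lay relative to the annotated pseudogene (horizontal axis), with colours for how much of that peak aligned to the parent transcript. The upstream column is the tallest, with 87 members that have no copied base in the peak, against 21 with at least 50%.

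Near-identical sequence elsewhere limits how surely a peak belongs to its pseudogene. The best replicate 1 peak had a further genomic match of at least 95% identity over at least 80% of its length in 32 of 277 members (11.6%, 8.04 to 15.9%), against 107 of 13309 open protein-coding starts (0.804%). Among isolated members it was 28 of 249, 20 of them with the peak in copied sequence. The member with the lowest mean percentile of score, Gm49360, a copy of the cell cycle kinase gene Cdk6, scored 6 and 8, and its replicate 1 peak has 7 further matches. The part of such matches in the results was not tested beyond the shares without them.

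CpG-rich sequence, a feature that the rule did not use, was far more common at isolated open-start pseudogenes than at isolated pseudogenes as a whole. A 5' end was called CpG-rich when 500 bp centred on it had at least 50% GC and an observed to expected CpG ratio of at least 0.6. Of isolated members 62 of 249 were CpG-rich (24.9%, 19.7 to 30.8%), against 338 of all 9377 isolated pseudogenes (3.6%, 3.24 to 4%). Read the other way, 18.3% of CpG-rich isolated pseudogenes were open (14.4 to 22.9%), against 2.07% of those that were not (1.79 to 2.38%). With stricter limits, 55% GC and a ratio of 0.75, 41 of 88 were open (46.6%, 35.9 to 57.5%). Of these 41, 16 had a further genomic match of the peak. With open pseudogenes whose peak had such a match not counted as open, 45 of the 338 CpG-rich isolated pseudogenes were open (13.3%). Matches were not searched at closed pseudogenes, which all stayed in the 338.

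The open share increased along GC above 40%. It was 1.58% at up to 40% GC, 1.08% between 40 and 45%, 2.74% between 45 and 50%, 3.33% between 50 and 55%, 10.5% between 55 and 60% and 37.9% (39 of 103) over 60%. Even so, 187 of the 249 isolated members were not CpG-rich. Whether the copy reached the first 50 bases of the parent transcript was compared within each CpG class. Among CpG-rich isolated pseudogenes 19.6% of those that reached it were open (14.1 to 26%) and 16% of those that did not (10.5 to 22.9%), and among the rest 1.91% and 1.98%. Identity to the parent showed no order either, between 1.92% open at 85 to 90% identity and 2.94% at 95 to 98%. The median identity was 89.6% for isolated members and 88.9% for all isolated pseudogenes.

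**Figure D4:**
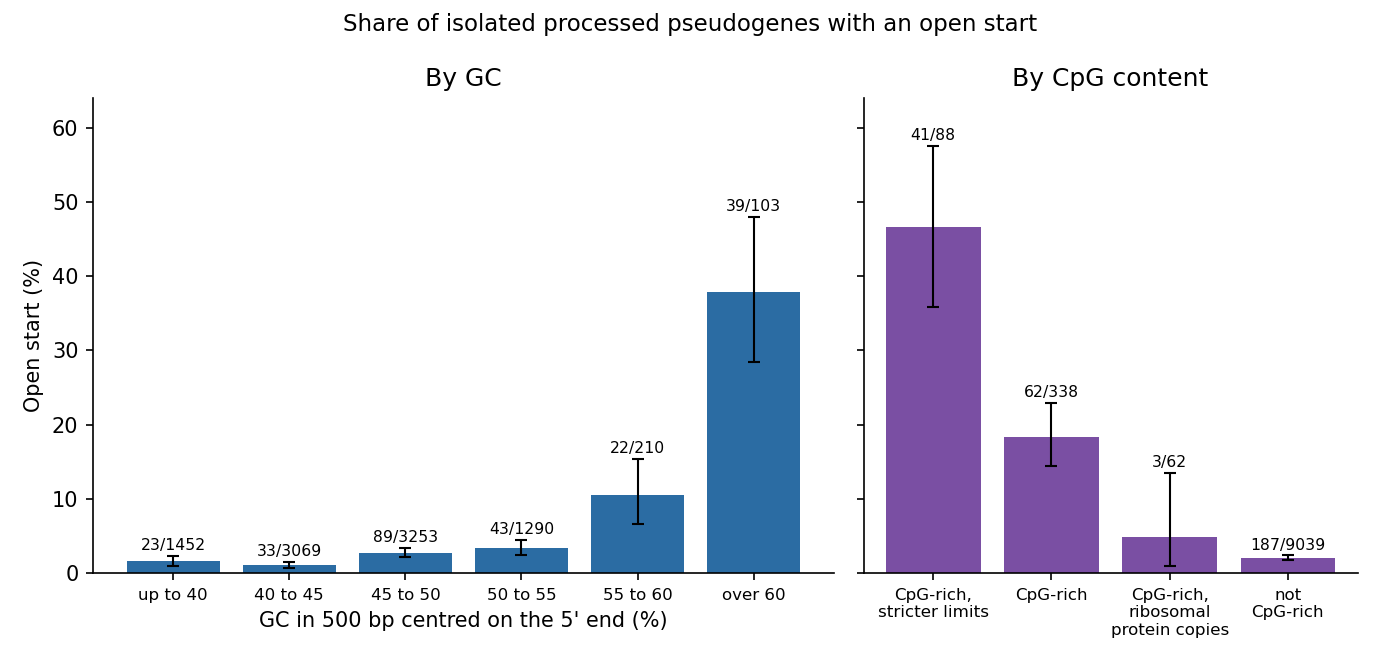
Share of isolated processed pseudogenes with an open start (vertical axis, percent, bars with exact 95% intervals and counts) by GC of the 500 bp at the 5' end (left) and by CpG content (right). The bar over 60% GC reaches 37.9% and that of the stricter CpG limits 46.6%, against 2.07% for pseudogenes that were not CpG-rich; copies of ribosomal protein genes that were CpG-rich reached 4.84%.

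Motifs were searched as plain letters. In the 300 bp window of 250 before to 50 bases after the 5' end, on both strands, GGGCGG, the core bound by Sp and Klf factors, was found in 21.7% of isolated members, against 5.66% of all isolated pseudogenes. Within CpG-rich ones it was found in 59.7% of isolated members (37 of 62, 46.4 to 71.9%), against 34% of all (115 of 338, 29 to 39.3%). These 2 sets still differ in composition. The CpG-rich members had a median GC of 60.8% and CpG ratio of 0.817, against 54.4% and 0.713 for all CpG-rich ones. The part of composition in the GGGCGG shares was not tested. CCGGAAG, of Ets factors, was found in 4.42% of isolated members, against 2.09% of all, but within CpG-rich ones in 4.84%, against 5.33%. TATAAA was found in 16.5%, against 23.5%, and CCAAT, of NF-Y, in 31.3%, against 37.7%; within CpG-rich ones the shares were 9.68%, against 13.9%, for TATAAA and 25.8%, against 26%, for CCAAT. TGACGTCA, of CREB, was in 0 of 277 members and in 14 of all 9940 (0.141%), too few to compare. The Nrf1 and YY1 consensus were each in 0.803% of isolated members, against 0.192% and 0.693% of all. Within CpG-rich ones each was in 1 of the 62 members (1.61%), against 2.07% of all for Nrf1 (7 of 338) and 0.888% for YY1 (3 of 338). A match says only that the letters are in the window.

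The parents of the isolated members were many and mostly single. A parent was assigned to 225 of 249, and 153 of the 181 parents had 1 isolated member each. Copies of ribosomal protein genes, the largest group, were open in 43 of 2166 (1.99%, 1.44 to 2.66%), with Gm5735 the highest by score. Their CpG-rich copies were open in 3 of 62 (4.84%, 1.01 to 13.5%), against 59 of 276 CpG-rich copies of all other kinds (21.4%, 16.7 to 26.7%). The peak had a further genomic match in 17 of these 59 and in 0 of the 3 copies of ribosomal protein genes. GC and CpG ratio were not compared between these 2 sets, and the part of composition in the contrast was not tested. Of all CpG-rich isolated pseudogenes below the stricter CpG limits, 21 of 250 were open (8.4%, 5.27 to 12.6%). Copies of Rps2 were an example of the low share among ribosomal protein copies: 21 of 131 isolated copies were CpG-rich, and none of those 21 was open. The 3 open ones (Gm16305, Gm18014 and Gm48938) were not CpG-rich.

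The groups were formed by how the parent's symbol starts. Proteasome and ubiquitin genes, which run regulated protein breakdown, had the highest share, 10 of 161 (6.21%, 3.02 to 11.1%). The highest by score was Gm2058, a copy of the ubiquitin-conjugating enzyme gene Ube2h that scored 75 and 55. Its replicate 1 peak lay 100% in copied sequence and has 1 further genomic match. Of the 3 open CpG-rich copies in the group, 2 had such a match. The group includes a copy of Ubald2, which the start of its symbol placed there. Histone and HMG protein genes followed with 12 of 293 (4.1%, 2.13 to 7.04%), led by Gm8666, a copy of Hmgn1 (98 and 65). Without the copies of Hmgn1 the group had 6 of 278 (2.16%, 0.796 to 4.64%). The cytoskeleton group had 5 of 131, led by Gm8034, a copy of the thymosin gene Tmsb10 (74 and 52). RNA-binding and splicing genes had 5 of 181, led by Gm30646. The respiratory chain group had 5 of 201, led by Gm6822, a copy of the ATP synthase subunit gene Atp5l (74 and 64). Translation factors had 3 of 151, led by Gm7688, a copy of the initiation factor gene Eif1 (101 and 78). One of the 3 is a copy of Eef1akmt2, a methyltransferase gene that shares only the start of its symbol with them.

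Glycolysis genes had 2 of 312 (0.641%, 0.0777 to 2.3%), of which Gm8357, a copy of Gapdh, scored higher (46 and 29). Copies assigned to a predicted gene counted among all other parents, whatever that gene encodes, so the glycolysis count may miss some. Gm10358, with 3 open of 140 isolated copies, was such a parent. Of the 206 copies of chaperone and cyclophilin genes 0 were open, which allows a share of up to 1.77%. Pseudogenes with no parent assigned had 24 of 694, led by Gm47474 (100 and 68), and all other parents 140 of 4881, led by Bambi-ps1. Parents themselves were open at the start for 91.1% of isolated members, against 89.1% of all isolated pseudogenes, so an open parent hardly differed between the sets.

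**Figure D5:**
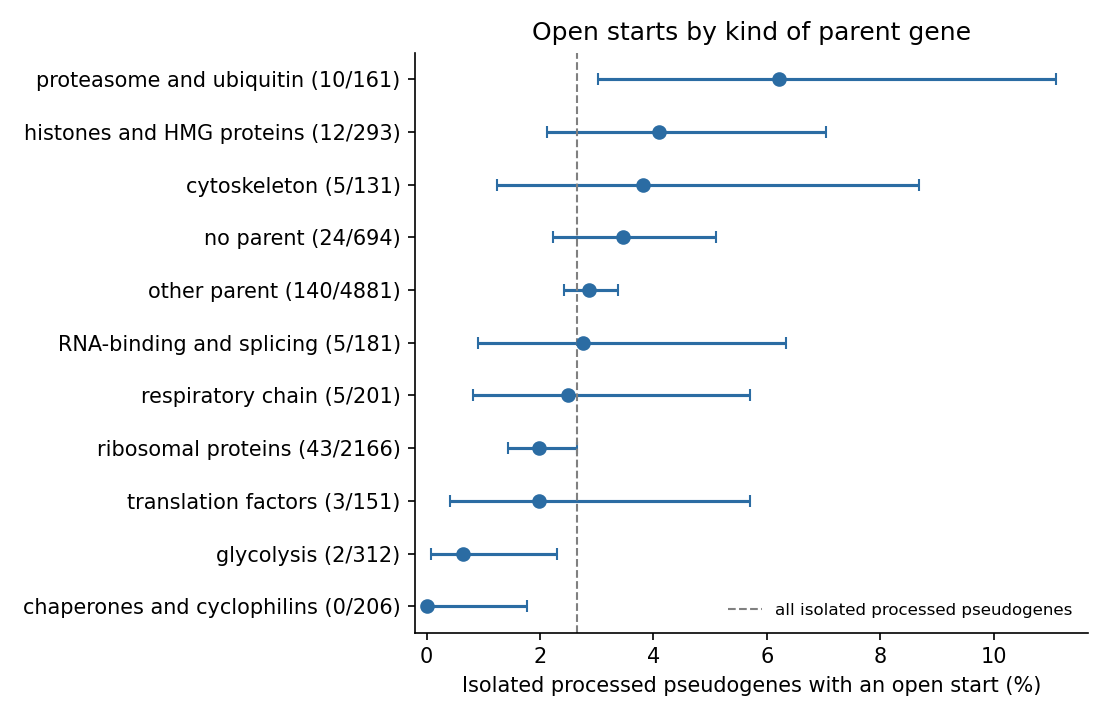
Share of isolated processed pseudogenes with an open start (horizontal axis, percent, points with exact 95% intervals) by the kind of parent gene (vertical axis, with open and total counts); the dashed line marks all isolated pseudogenes at 2.66%. Proteasome and ubiquitin copies lie highest at 6.21% and chaperone and cyclophilin copies lowest at 0%.

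Hmgn1 had the most isolated open copies, 6 of 15. Hmgn1 encodes a small protein that binds nucleosomes. The open copies lay on 6 chromosomes. Gm8666 on chromosome X scored 98 and 65, Gm15321 on 17 scored 79 and 44, Gm11663 on 11 scored 73 and 41, Gm34379 on 3 scored 53 and 32, AC102285.1 on 19 scored 52 and 30, and Gm7862 on 12 scored 36 and 31. All 6 scored below the start of Hmgn1 itself, which had 146 and 139 in replicates 1 and 2. In replicate 1 the peak lay across the 5' end in 5 of 6, and in the same 5 it lay in copied sequence; in AC102285.1 it lay upstream with no copied base. None of the 6 peaks had a further genomic match. Of the 5 CpG-rich Hmgn1 copies 4 were open, and the fifth, Gm6633, had a peak in replicate 1 (score 32) and none in replicate 2. Identity to the parent varied among the open copies. Gm8666 and Gm7862 were 97.9% identical to the parent transcript, Gm11663 96.2% and Gm34379 95.2%, whereas Gm15321 was 86% and AC102285.1 74.8%. The 9 others ran between 78.6 and 90.4%.

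The first 60 bases of 4 of these copies are shown because they start at the copied coding start and the peaks of both replicates cross that start; the choice was made with their values in view. Gm15321 and AC102285.1 also begin there, but differ from the transcript at 28 and 26 of the 60 bases when set base against base without gaps, and are not shown. Capitals mark bases that differ from the Hmgn1 transcript. The intervals in mm10 are chrX:75475464-75475523 (minus strand) for Gm8666, chr11:104571498-104571557 (minus strand) for Gm11663, chr3:63905429-63905488 (plus strand) for Gm34379 and chr12:76152568-76152627 (minus strand) for Gm7862.
Gm8666: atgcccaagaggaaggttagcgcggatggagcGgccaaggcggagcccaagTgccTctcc
Gm11663: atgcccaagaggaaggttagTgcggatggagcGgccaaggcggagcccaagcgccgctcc
Gm34379: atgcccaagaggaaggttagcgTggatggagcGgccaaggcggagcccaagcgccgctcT
Gm7862: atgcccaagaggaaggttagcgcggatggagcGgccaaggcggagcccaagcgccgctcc
Hmgn1: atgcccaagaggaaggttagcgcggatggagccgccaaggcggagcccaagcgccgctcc
The copies differ from the parent at 3, 2, 3 and 1 of the 60 bases, in that order.

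The 8 other parents with at least 3 isolated members show how mixed the families are. H3f3a, a replacement histone H3 gene, had 4 open of 67 isolated copies (Gm12890, Gm12950, Gm20545 and Gm47650), all with the peak in copied sequence and none CpG-rich; 1 of these peaks, that of Gm12950, had a further genomic match. The ribosomal protein genes Rpl21, Rpl7a and Rps6 had 4 of 96, 4 of 172 and 4 of 102, and none of the 4 Rpl21 copies had the peak in copied sequence. The predicted gene Gm10358 had 3 of 140, with the peak in copied sequence in none. The 9030624G23Rik copies, all on chromosome 12, had 3 of 8 open (Gm21297, Gm48037 and Gm48042), all CpG-rich, but 2 of these 3 peaks had further genomic matches. Cdk6 had 3 of 9 (Gm21321, Gm49261 and Gm49360), of which 1 peak had such matches. Rps2 had the 3 of 131 described above.

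The 28 members near another start included the strongest peaks of all. The other gene was protein-coding for 13 of them, and 9 of these pairs were divergent, with the starts facing away from each other. Of all processed pseudogenes beside a protein-coding start, 13 of 114 were open (11.4%), while beside another processed pseudogene 3 of 247 were (1.21%). For the 13, the best replicate 1 peak was closer to the other gene's start in 8, with its centre a median of 114.5 bp from that start and 399 bp from the pseudogene's 5' end. For the 15 whose neighbour was of another biotype it was closer to the other start in 4, with medians of 323.5 and 181 bp. Median scores were 117 and 99 for the 13 and 56 and 40 for the 15.

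The 8 highest by score all stood beside protein-coding genes, and 6 of them are described here. AC125122.2 scored 142 and 132 at 264 bp from the start of BC031181. Its assigned parent was mt-Co3, the cytochrome oxidase subunit gene of the mitochondrial genome. Parents encoded there were assigned to 3 of 277 members (1.08%) and 37 of all 9940 (0.372%). Whether such members are copies of an mRNA was not tested. Hist3h2bb-ps scored 140 and 131 at 173 bp from the ubiquitin ligase gene Trim17. Gm7285, a copy of Rps7, scored 136 and 120 at 535 bp from Mospd3. Gm13033, a copy of the cyclooxygenase gene Ptgs2, scored 130 and 112 at 254 bp from the syntaxin gene Stx12. Gm5655, a copy of the deubiquitinase gene Usp1, scored 122 and 99 at 297 bp from Adck1.

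Gm43580, with no parent assigned, scored 117 and 100 at 46 bp from the phosphatase gene Inpp5f and lies in an exon of it on the same strand. In these 6 an open pseudogene start and an open neighbouring start cannot be told apart. The pair Aldoa-ps3 and Aldoa-ps4, copies of the glycolytic aldolase gene Aldoa whose 5' ends lie 148 bp apart, shared 1 peak (83 and 62), so the 277 members rest on 276 different replicate 1 peaks.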

How the data were processed

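DNase-seq of 2 replicates of 1 group was analysed from the authors' peak lists, with their hotspots as an alternative. The authors called both kinds of region per library, without pooling, on mm10 alignments they had filtered, per their deposited file list. Aligner, caller and threshold: not given in the sources used here. The deposited peak score is a whole number with no stated scale, and the deposited hotspots carry −log10 q values. Read depth is unknown; replicates 1 and 2 had 270757 and 171790 peaks on the assembled chromosomes, nearly all 150 bp wide.

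Gene 5' ends and transcript starts came from GENCODE M21 (mm10). A member needed a peak of each replicate within 500 bp; its best peak is the one with the highest score. Parents were assigned with BLASTN (BLAST+ 2.17.0, E-value limit 1e-10), as the protein-coding gene with the highest bit score over at least 50% of the exonic length. Exact (Clopper-Pearson) 95% intervals came from scipy 1.17.1 with Python 3.11.15. The steps were tested on simulated peaks and mutated transcripts. Named are the 12 highest isolated members by mean percentile of score, the 8 highest near another start, the highest per parent group, those just inside and outside the limit, and parents with at least 3 isolated members; any other gene was picked with its values in view. Of the 8, 2 are not reported here. Members and lists were chosen with earlier results of these data known. The labels give both replicates the same donor entry. Alternatives are in the closing section; values of columns from other samples: 0.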

Additional observations from a re-analysis of the deposited data

How the results depend on the processing

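The number of open-start processed pseudogenes depended mainly on the replicates, the score and the window. With 1 replicate alone it was between 332 and 539 (2.79% became 3.34 to 5.42%; isolated 301 to 492, 3.21 to 5.25%; near another start 31 to 47, 5.51 to 8.35%). With peaks at or above the median score of their list it was 135 (1.36%; isolated 118, 1.26%; near 17, 3.02%). With windows of 250 and 1000 bp it was 172 and 520 (1.73 and 5.23%; isolated 153 and 463, 1.63 and 4.94%; near another start 57 and 10.1% at 1000 bp). With hotspots 3.23% of all and 3.08% of isolated pseudogenes were open, and with lists of equal length 2.23% and 2.1%. Counting other starts of protein-coding transcripts only left 13 members near another start (11.1%), and a limit of 2000 bp gave 47. A parent over 80% of the length was assigned to 84.1%. CpG-rich members were 16.6% (isolated 16.5%) under the stricter CpG limits, and between 17.8 and 22.6% (isolated 16.3 to 21.6%) with 1 replicate alone. Of the alternatives added after the data were seen, 57.2% of isolated members had any base of the peak in copied sequence. The open share of CpG-rich isolated pseudogenes was 13.3% without peaks that match elsewhere, 9.76% with the higher scores, 46.6% under the stricter CpG limits and 19.2 to 23.7% with 1 replicate alone. It exceeded that of the other isolated pseudogenes under each of the 9 alternative peak rules run, the smallest ratios being 21.3% against 4.33% at 1000 bp and 23.7% against 4.56% in replicate 1 alone. Other alternatives moved values within 1.5 times or their intervals. No paired analysis was possible because there is only 1 group.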
